A study of Rattus norvegicus with 9 samples.

Results

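The genes described here are 40 genes of NF-kB and innate receptor signalling in rat chondrocytes, chosen by symbol as NF-kB subunits, their inhibitors, the kinases and adaptors above them, innate and TNF receptors, and direct targets. All 40 were found among the 18924 genes of the table, and 39 had enough counts to be tested, the exception being Cd40. RNA came from primary chondrocytes of Sprague-Dawley (SD) rats, the cells that build cartilage matrix, at passage 1 or 2, after 24 h of treatment. Every group received rat plasma: alone (RP, n = 3), with thrombin (RPT, n = 3), or with thrombin and an inhibitor (RPTi, n = 3). The labels give no name for the inhibitor and no doses, and no group analysed here had the inhibitor without thrombin. The labels also leave unsaid if replicate libraries came from separate animals or cultures. The p-values therefore reflect no more than the spread among these libraries, which could be technical. The question is how thrombin, a clotting protease that also signals through protease-activated receptors, regulates these cells.

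NF-kB is a family of paired transcription factor subunits that are held in the cytoplasm by IkB proteins. Signals from Toll-like receptors, TNF receptors and related receptors pass through adaptor proteins and ubiquitin ligases to the IKK kinase complex, which marks IkB for destruction and lets the subunits enter the nucleus. Many of the genes then switched on encode brakes on the pathway itself. In cartilage this pathway is best known for its part in inflammatory matrix breakdown. RNA levels do not show whether the proteins were active.

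The promoters of several of these genes carry the kB consensus motif, the 10-base site bound by NF-kB. Of these promoters, 6 are shown as examples of a shared motif with unlike RNA responses to thrombin. They were chosen with those responses known and do not represent all genes with the motif. Sequences are from RefSeq on the build GRCr8, from 250 bases before to 50 bases after the annotated start, 5′ to 3′ in the direction of the gene, with kB matches on either strand in capitals.
Tlr2, chr2:171504508-171504807, minus strand: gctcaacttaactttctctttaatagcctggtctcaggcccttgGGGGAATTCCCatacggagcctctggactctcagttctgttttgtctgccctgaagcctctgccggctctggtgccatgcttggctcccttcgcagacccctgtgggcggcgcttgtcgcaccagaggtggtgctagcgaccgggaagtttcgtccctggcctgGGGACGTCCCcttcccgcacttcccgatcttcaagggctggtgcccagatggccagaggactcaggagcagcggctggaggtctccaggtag
Nfkbiz, chr11:58251471-58251770, plus strand: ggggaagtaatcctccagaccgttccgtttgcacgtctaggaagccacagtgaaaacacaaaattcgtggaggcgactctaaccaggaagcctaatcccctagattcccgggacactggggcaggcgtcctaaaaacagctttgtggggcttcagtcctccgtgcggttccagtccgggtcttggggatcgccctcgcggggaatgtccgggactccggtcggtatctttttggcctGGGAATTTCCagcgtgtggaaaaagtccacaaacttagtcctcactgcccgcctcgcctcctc
Tnfaip3, chr1:15543930-15544229, minus strand: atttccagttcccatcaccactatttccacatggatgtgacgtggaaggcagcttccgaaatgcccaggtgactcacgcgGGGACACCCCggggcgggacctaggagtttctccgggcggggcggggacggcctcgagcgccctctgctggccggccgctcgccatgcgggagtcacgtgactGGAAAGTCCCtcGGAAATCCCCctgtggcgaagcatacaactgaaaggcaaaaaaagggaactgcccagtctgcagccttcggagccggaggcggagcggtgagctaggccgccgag
Nfkbia, chr6:78597023-78597322, minus strand: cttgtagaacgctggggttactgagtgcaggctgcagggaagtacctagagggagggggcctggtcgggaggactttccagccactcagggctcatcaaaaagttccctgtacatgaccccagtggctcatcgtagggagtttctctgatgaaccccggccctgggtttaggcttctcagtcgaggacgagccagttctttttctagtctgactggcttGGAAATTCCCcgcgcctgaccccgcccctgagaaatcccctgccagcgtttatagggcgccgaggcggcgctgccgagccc
Tnip1, chr10:39584912-39585211, minus strand: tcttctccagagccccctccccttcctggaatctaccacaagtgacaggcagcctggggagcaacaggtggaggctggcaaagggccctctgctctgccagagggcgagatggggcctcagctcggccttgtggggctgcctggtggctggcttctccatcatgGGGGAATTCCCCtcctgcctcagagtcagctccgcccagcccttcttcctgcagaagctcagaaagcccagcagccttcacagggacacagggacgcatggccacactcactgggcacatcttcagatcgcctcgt
Vcam1, chr2:206742734-206743033, minus strand: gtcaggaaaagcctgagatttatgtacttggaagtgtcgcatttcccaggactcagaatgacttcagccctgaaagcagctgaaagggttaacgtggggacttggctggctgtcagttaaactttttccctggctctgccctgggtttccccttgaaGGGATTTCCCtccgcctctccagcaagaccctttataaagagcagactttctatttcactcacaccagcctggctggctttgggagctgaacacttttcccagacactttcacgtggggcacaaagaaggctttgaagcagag
With thrombin, Tlr2, Nfkbiz, Tnfaip3 and Nfkbia rose, Tnip1 did not pass the test, and Vcam1 fell.

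RefSeq promoters were matched by symbol for 33 of the 40 genes, and Relb, Ikbkb, Cd40, Traf6, Ripk2, Birc3 and Cebpd were not matched. The kB consensus motif GGGRNNYYCC (R is A or G, Y is C or T, N is any base) was searched on both strands. Overlapping matches were counted by their first base, and sites that differ from the pattern were not counted. The motif stood in 14 of the 33 windows (42.4%), against 7.6% of 27457 promoters of the same length. Tlr2 had matches beginning at -206, -205 and -42 from the start, Tnfaip3 at -170, -67 and -55, Nfkbia at -31, Nfkbiz at -13 and Vcam1 at -93. The genes were chosen as NF-kB genes, so the share describes the choice. Of the 14 genes with a match, 8 rose with thrombin, 1 fell and 5 did not pass. Of the 19 without a match, 6 rose, 1 fell and 12 did not pass. Of the 6 tested genes that had no promoter to search, 4 rose (Relb, Ripk2, Birc3 and Cebpd) and 2 did not pass. Among all genes tested, 13.6% rose and 15.2% fell. The AP-1 motif TGANTCA stood in 8 of the 33 windows (24.2%, against 7.33% of all promoters), namely those of Nfkb2, Nfkbie, Map3k8, Tnfrsf1b, Traf1, Tnfaip3, Myd88 and Birc2. The first 6 of these genes rose with thrombin and the last 2 did not pass, and of the 25 genes without the motif 8 rose, against the same 13.6% of all genes tested. The STAT motif TTCNNNGAA stood in 4 windows (12.1%, against 8.68% of all promoters), those of Tril, Myd88, Tnip1 and Icam1. Of these 4 genes, 0 rose with thrombin, Tril fell and 3 did not pass. Of the 29 genes without the STAT motif, 14 rose, 1 fell and 14 did not pass, against the same 13.6% and 15.2% of all genes tested. No match of one motif overlapped a match of another in these windows. A match is a string of letters in this window and shows no binding, and these counts were not tested.

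**Figure D1:**
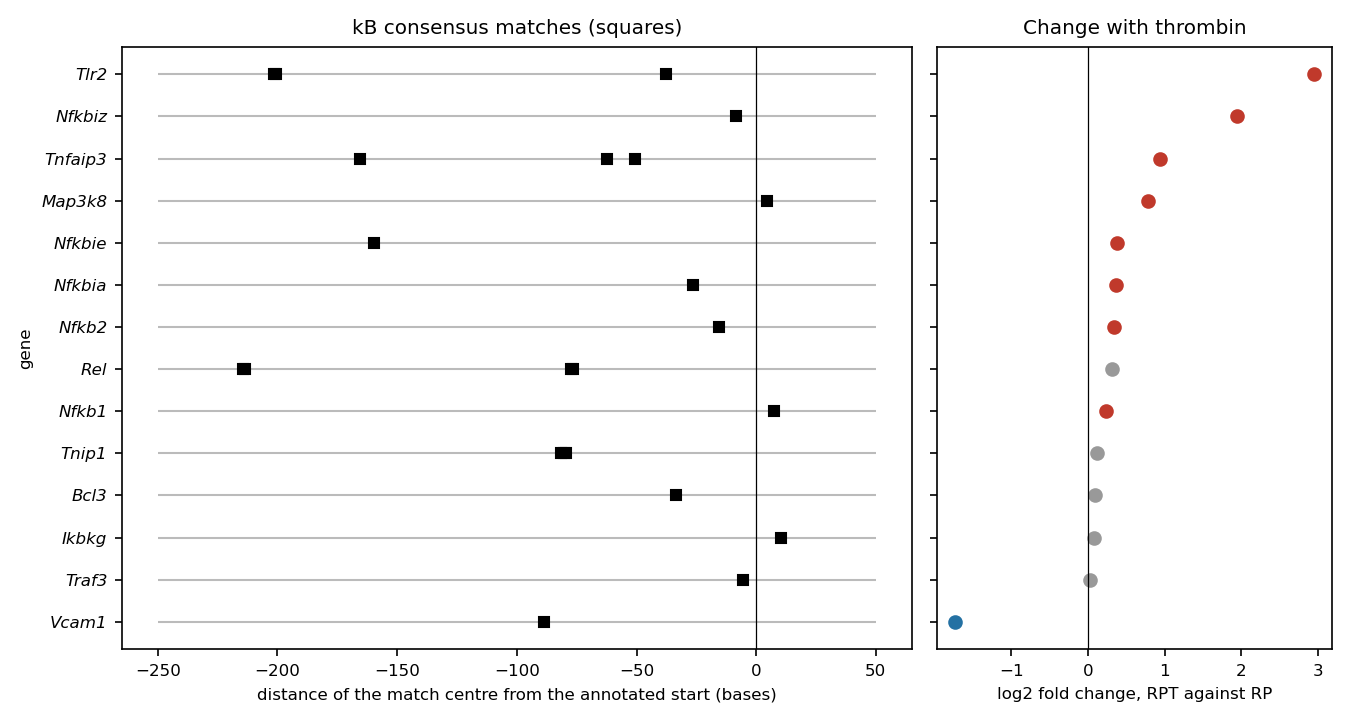
Left, distance in bases of each kB consensus match (squares) from the annotated start in the 14 promoters that hold one (grey lines, the window of 250 bases before to 50 after). Right, log2 fold change of the same gene in RPT against RP (red, rose; blue, fell; grey, did not pass): genes with a match range from Vcam1 at -1.73 to Tlr2 at 2.95.

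Library totals ranged from 31877265 to 43962783 counts, so that 1 count was worth 0.0227 to 0.0314 counts per 1e6 before TMM scaling. Levels are given as CPM, which are counts per 1e6 after TMM scaling. Within groups, log2 CPM values correlated at 0.988 to 0.991. Chondrocyte markers (9 genes, among them Col2a1 and Acan) summed to 47450 to 48460 CPM in RP, 29790 to 31610 CPM in RPT and 73190 to 79380 CPM in RPTi. All 9 fell with thrombin, and all 9 were higher in RPTi than in RPT. Markers of macrophages and other leukocytes, which express Tlr2 and Cd14 strongly, summed to 9.06 to 10.0 CPM over 11 genes in RP, 7.84 to 9.23 CPM in RPT and 5.72 to 6.15 CPM in RPTi. The leukocyte gene Ptprc lay between 0 and 0.129 CPM in the 9 libraries, Aif1 was at 0 in RPT and RPTi, and Adgre1 was at 0 in RPTi. Only 4 of these 11 had enough counts for a test, and with thrombin Cd68 rose while Csf1r and Laptm5 fell. Endothelial markers (7 genes) summed to 3.43 to 4.31 CPM in RP, 6.93 to 6.98 CPM in RPT and 2.52 to 2.92 CPM in RPTi, with Plvap and Flt1 higher in RPT and Cdh5 at 0 in 8 of 9 libraries. Fibroblast-type markers (6 genes, among them Thy1) summed to 1149 to 1206 CPM in RP, 1132 to 1160 CPM in RPT and 806 to 868 CPM in RPTi. With thrombin Pdgfra, Dpp4 and Cd34 fell, and Thy1, Pdpn and Pi16 did not pass. In RPTi against RPT, Dpp4 and Cd34 rose, Thy1, Pdpn and Pdgfra fell, and Pi16 did not pass. In these bulk samples, fewer cells of a type and less RNA per cell cannot be told apart, and the part of these marker differences in the results below was not tested.

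With thrombin, 18 of the 39 tested genes rose, 2 fell and 19 did not pass (edgeR's quasi-likelihood test, Benjamini-Hochberg adjusted p below 0.05 over all 13856 genes tested). Over all genes tested, 13.6% rose and 15.2% fell (28.9% in either direction), against 46.2% and 5.13% of these genes. The median log2 fold change was 0.19 over the 39 genes and -0.00071 over all genes. The largest rises were those of the receptor gene Tlr2, the nuclear IkB gene Nfkbiz, the mitochondrial superoxide dismutase gene Sod2, the RNase gene Zc3h12a and the subunit gene Relb. The 2 that fell were the Toll-like receptor accessory gene Tril and the adhesion gene Vcam1. The 19 that did not pass lay between 0.01 and 0.31 on the log2 scale, and the core kinase and adaptor genes are among them.

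With the inhibitor added to thrombin (RPTi against RPT), 18 of the 39 genes fell, 2 rose and 19 did not pass, where 21.1% of all genes tested fell and 20.4% rose (41.5% in either direction). Tril and the adhesion gene Icam1 were the 2 that rose. The median was -0.21 over the 39 genes and -0.0083 over all genes. Between RPTi and RP, 7 genes rose, 5 fell and 27 did not pass, where 11.9% of all genes tested rose and 12.3% fell (24.2% in either direction), and the median was 0.08 over the 39 genes and -0.0064 over all genes. The 7 that were higher with thrombin and inhibitor than in plasma alone were Nfkb2, Relb, Nfkbiz, Bcl3, Zc3h12a, Icam1 and Sod2, and the 5 that were lower were Tlr4, Irak1, Traf1, Vcam1 and Tnfaip2. The number that fell was 3 without RP replicate 1 and 3 without RPTi replicate 1. Each pair of comparisons shares a group of libraries, so the changes in one comparison are not independent of those in the next. With library totals alone in place of TMM, 38.4% rather than 49.2% of all called genes rose in RPTi against RPT, and 36.6% rather than 49.1% in RPTi against RP. With those totals the counts for the 39 genes were 2 rising and 21 falling in RPTi against RPT, and 6 rising and 5 falling in RPTi against RP.

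**Figure D2:**
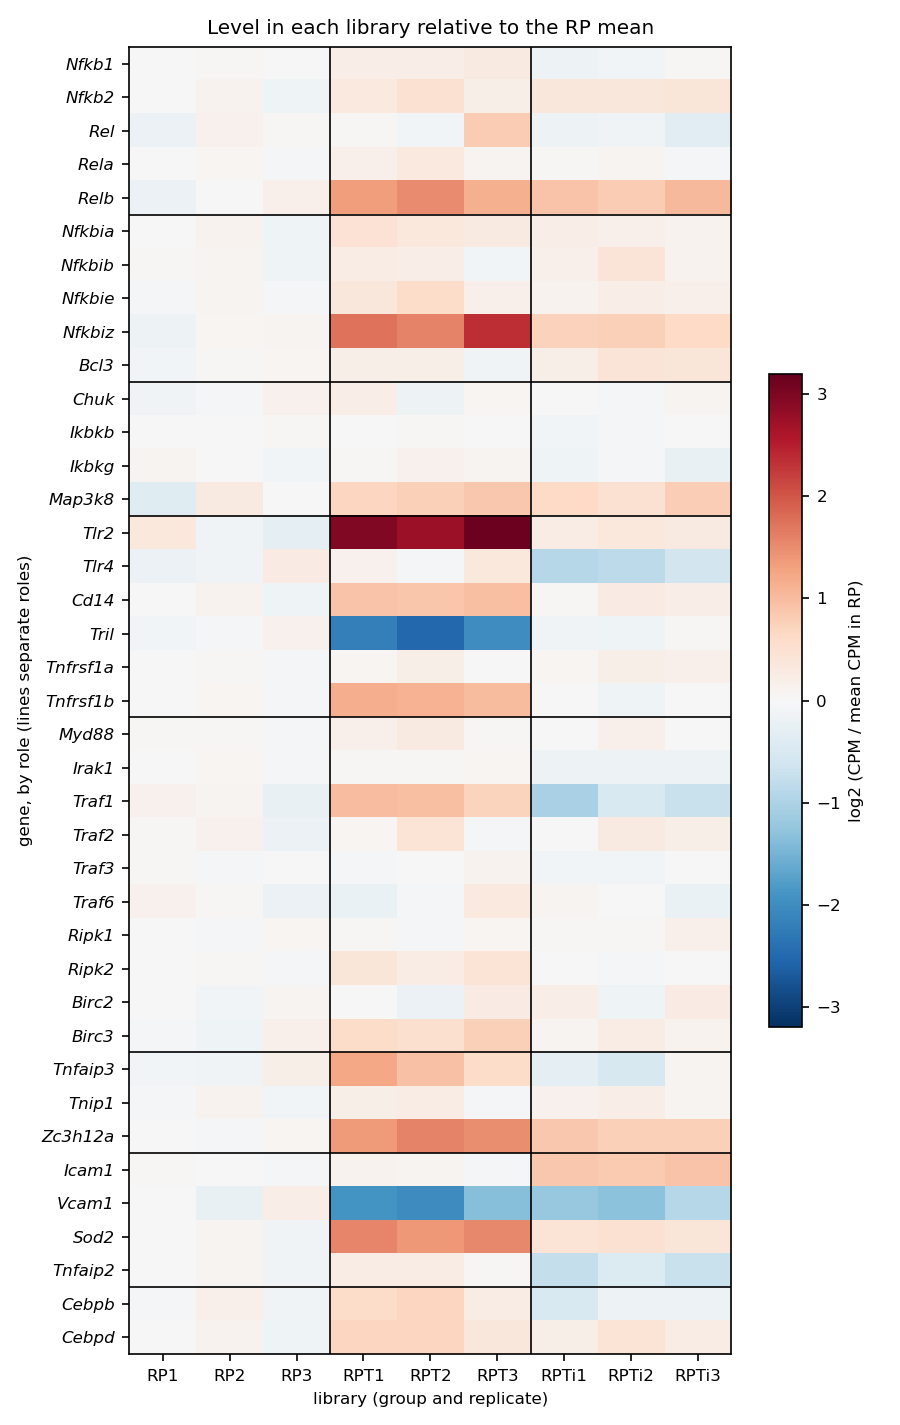
Level of each of the 39 tested genes (rows, grouped by role in the order subunits, IkB proteins, kinases, receptors, adaptors and ubiquitin ligases, negative regulators, adhesion and other targets, C/EBP factors) in each of the 9 libraries (columns), as log2 of the CPM over the mean CPM of the RP libraries. Tlr2 and Nfkbiz are the darkest red rows in the RPT libraries and Tril and Vcam1 the darkest blue, while Icam1 is red in RPTi alone.

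**Figure D3:**
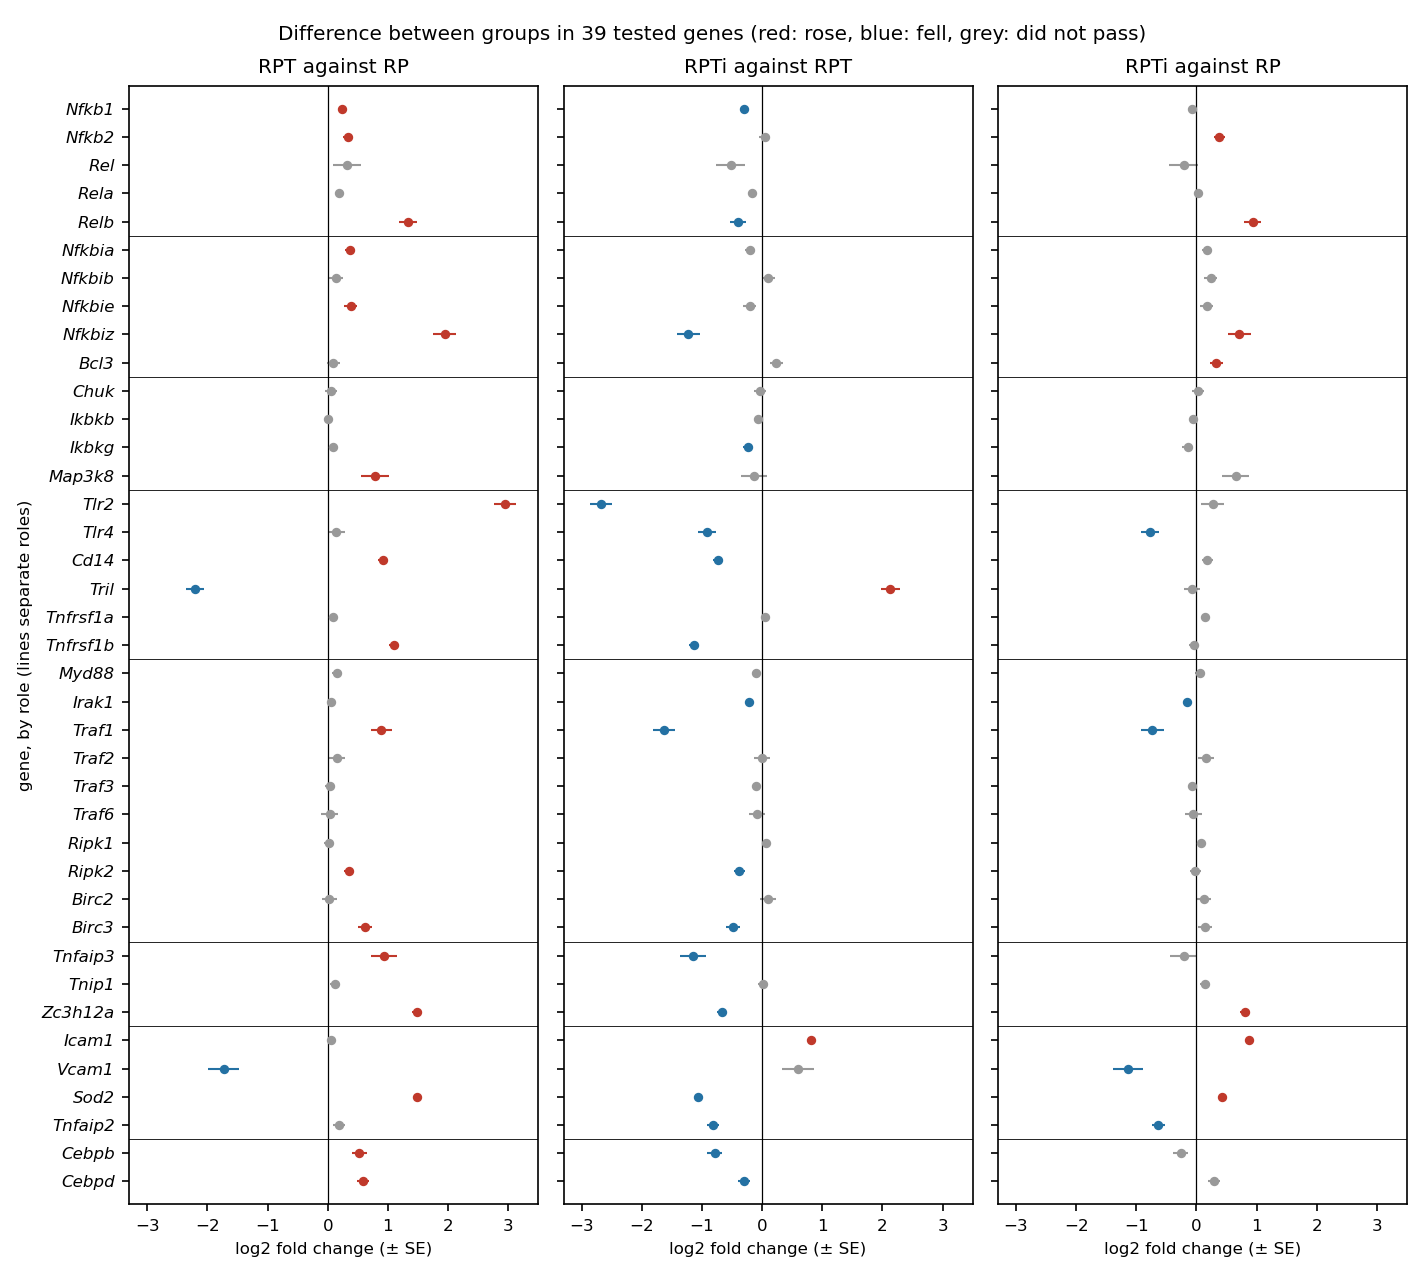
Log2 fold change with its SE (horizontal lines) for the same 39 genes in the 3 comparisons (red, rose; blue, fell; grey, did not pass at an adjusted p of 0.05). In RPT against RP 18 points are red and 2 blue, and in RPTi against RPT 2 are red and 18 blue.

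The receptors had the widest range of log2 fold changes with thrombin, from -2.21 to 2.95. Tlr2 (ENSRNOG00000009822), which senses bacterial lipoproteins, stood at 1.92, 1.40 and 1.22 CPM in the RP libraries, 11.8, 10.1 and 13.4 CPM in RPT, and 1.78, 1.91 and 1.84 CPM in RPTi. Every RPT library was above every library of the other groups, while RP and RPTi overlapped. The rise was 7.73-fold with thrombin (log2 fold change 2.95, SE 0.18, adjusted p = 1.98e-07), and Tlr2 was 6.39-fold lower in RPTi than in RPT (adjusted p = 1.11e-07). RPTi and RP differed by 0.27 (SE 0.19, adjusted p = 0.329).

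Cd14 (ENSRNOG00000017819), a co-receptor that hands lipopolysaccharide and lipoproteins to Toll-like receptors, was at 21.5, 23.2 and 19.3 CPM in RP, 40.3, 39.4 and 41.3 CPM in RPT, and 22.1, 25.7 and 25.0 CPM in RPTi. It rose 1.89-fold with thrombin (log2 fold change 0.92, SE 0.09, adjusted p = 5.65e-06) and was 1.66-fold lower in RPTi than in RPT (adjusted p = 1.74e-05). The RPT libraries stood apart from the others, and RP and RPTi overlapped. Tlr4 (ENSRNOG00000010522), the lipopolysaccharide receptor, followed another course, with 8.12, 8.52 and 11.0 CPM in RP, 10.1, 8.79 and 11.6 CPM in RPT, and 4.92, 5.14 and 6.11 CPM in RPTi. RP and RPT overlapped (log2 fold change 0.14, SE 0.14, adjusted p = 0.492), whereas all RPTi libraries were lower than all others. Tlr4 was 1.88-fold lower in RPTi than in RPT (adjusted p = 0.000294) and 1.70-fold lower than in RP (adjusted p = 0.00229).

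Tril (ENSRNOG00000026941), a leucine-rich repeat protein that assists TLR4 and TLR3 signalling, moved in the opposite direction to Tlr2 and Cd14. Its levels were 7.01, 7.18 and 8.19 CPM in RP, 1.65, 1.30 and 1.89 CPM in RPT, and 6.84, 6.75 and 7.62 CPM in RPTi. The RPT libraries were all below the rest, and RP and RPTi overlapped. Tril fell 4.61-fold with thrombin (log2 fold change -2.21, SE 0.15, adjusted p = 5.87e-07), was 4.38-fold higher in RPTi than in RPT (adjusted p = 2.58e-07), and differed between RPTi and RP by -0.08 (SE 0.14, adjusted p = 0.734).

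Of the TNF receptor genes, 1 passed with thrombin and the other did not, where 28.9% of all genes tested passed in either direction. Tnfrsf1b (ENSRNOG00000016575), which encodes TNF receptor 2, a receptor without a death domain, was at 19.1, 19.9 and 18.4 CPM in RP, 42.6, 41.5 and 38.4 CPM in RPT, and 18.8, 17.3 and 19.4 CPM in RPTi. It rose 2.14-fold with thrombin (log2 fold change 1.09, SE 0.08, adjusted p = 5.59e-07) and was 2.20-fold lower in RPTi (adjusted p = 1.16e-07), so that RP and RPTi overlapped and RPT lay above both. Tnfrsf1a, which encodes the death-domain TNF receptor 1, was at 224 to 238 CPM in RP, 228 to 263 CPM in RPT and 241 to 263 CPM in RPTi, and passed in no comparison (0.08 with thrombin, adjusted p = 0.363). Cd40, a costimulatory receptor of antigen-presenting cells, had only 2, 0 and 5 counts in the RP libraries, 10, 6 and 6 in RPT, and 9, 2 and 6 in RPTi, and was not tested.

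On the per-length FPKM scale, the receptor levels in RP ran from Tnfrsf1a (109 ± 2.54, SD, n = 3) over Cd14 (12.7 ± 1.08), Tnfrsf1b (6.66 ± 0.217), Tlr4 (2.78 ± 0.485) and Tril (1.55 ± 0.144) to Tlr2 (0.588 ± 0.141). In RPT the mean of Tlr2 (4.64 ± 0.650) lay above that of Tlr4 (3.10 ± 0.423), and Tril was the lowest of the 6 (0.340 ± 0.0628). In RPTi, Tlr2 was again the lowest, at 0.691 ± 0.0242 FPKM, with Tril at 1.42 ± 0.102 and Tlr4 at 1.57 ± 0.192, the last 2 within 1 SD of each other.

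**Figure D4:**
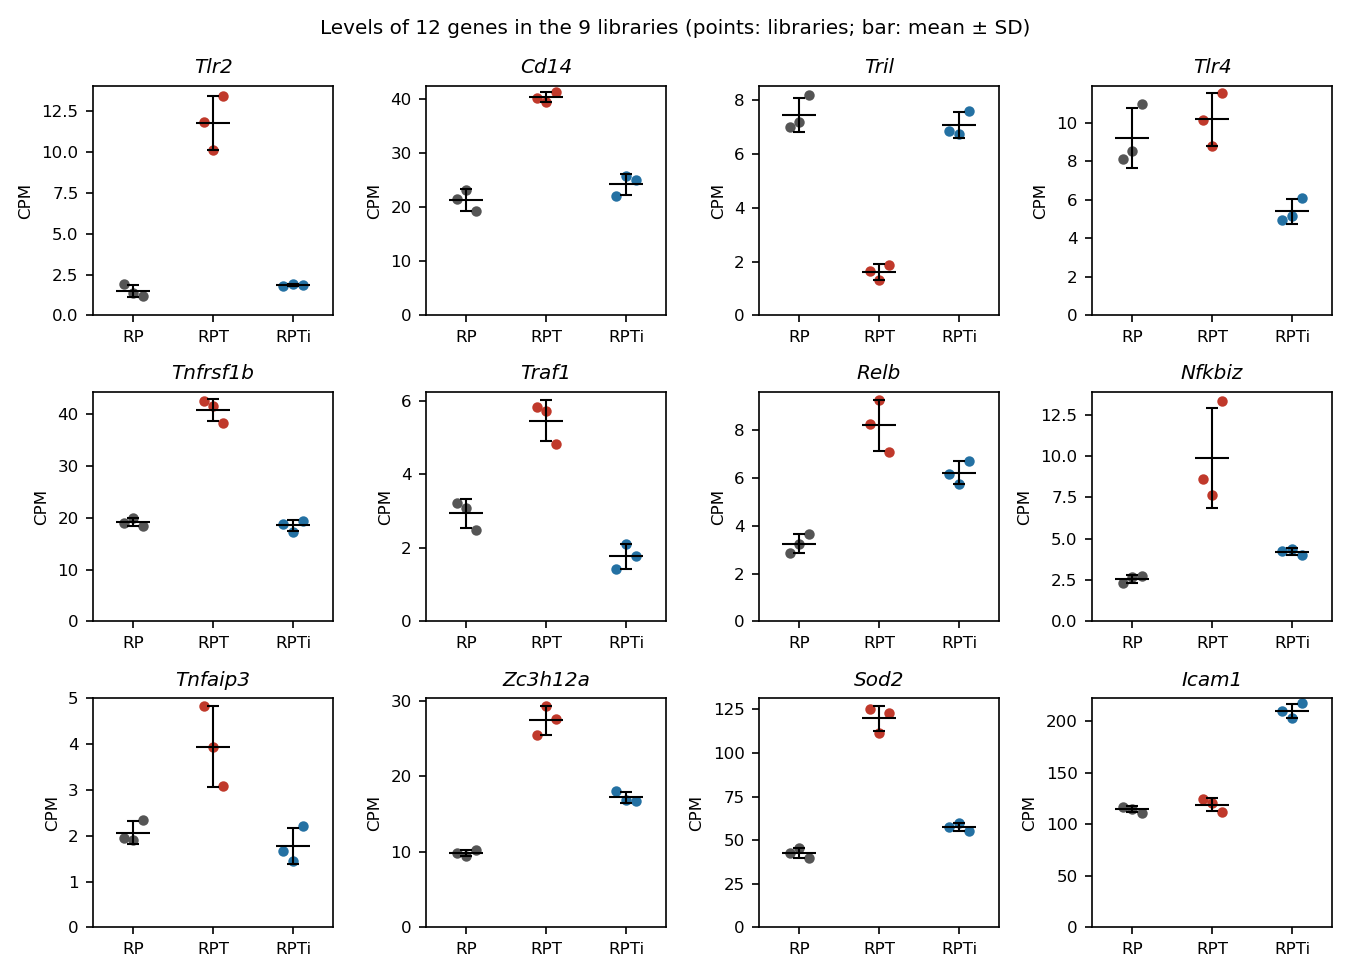
CPM (vertical axes, from 0) of 12 genes in the 3 groups, with 1 point per library and the mean ± SD (n = 3). Tlr2, Cd14 and Tnfrsf1b are high in RPT alone, Tril is low in RPT alone, Relb, Nfkbiz, Zc3h12a and Sod2 lie in between in RPTi, and Icam1 is high in RPTi alone.

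Among the 10 adaptor and ubiquitin ligase genes, 3 rose with thrombin and 7 did not pass. Of all genes tested, 13.6% rose and 15.2% fell. Those 7, Myd88, Irak1, Traf2, Traf3, Traf6, Ripk1 and Birc2, lay between 0.01 and 0.16 on the log2 scale. They include Myd88, the adaptor of most Toll-like receptors, at 29.1 to 30.8 CPM in RP and 30.8 to 36.7 CPM in RPT. They also include Traf6, the ubiquitin ligase below it, at 10.9 to 13.7 CPM in RP and 10.7 to 15.5 CPM in RPT. For both genes the groups overlapped.

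Traf1 (ENSRNOG00000048914), a TRAF protein without the ligase domain and a known NF-kB target, was at 3.23, 3.10 and 2.48 CPM in RP, 5.83, 5.73 and 4.82 CPM in RPT, and 1.42, 2.10 and 1.79 CPM in RPTi. The 3 groups did not overlap, with RPT highest and RPTi lowest. Traf1 rose 1.86-fold with thrombin (log2 fold change 0.89, SE 0.18, adjusted p = 0.00242), was 3.09-fold lower in RPTi than in RPT (adjusted p = 1.66e-05), and was 1.67-fold lower in RPTi than in RP (adjusted p = 0.0131). The last difference missed the threshold without RP replicate 1 (log2 fold change -0.66, adjusted p = 0.0545) or RPTi replicate 1 (-0.60, adjusted p = 0.0639).

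Birc3 (ENSRNOG00000005731), which encodes the inhibitor of apoptosis protein cIAP2, was at 5.97, 5.60 and 6.95 CPM in RP, 9.33, 8.85 and 10.4 CPM in RPT, and 6.54, 7.33 and 6.67 CPM in RPTi. It rose 1.54-fold with thrombin (log2 fold change 0.63, SE 0.12, adjusted p = 0.00149) and was 1.39-fold lower in RPTi than in RPT (adjusted p = 0.00533), RP and RPTi overlapping. Its paralog Birc2, which encodes cIAP1, passed in no comparison, with 19.3 to 22.0 CPM in RP and 17.9 to 24.5 CPM in RPT. Ripk2, the kinase below the NOD receptors, rose 1.28-fold with thrombin (10.2 ± 0.310 to 13.1 ± 0.899 CPM, SD, n = 3, adjusted p = 0.00738) and was at 10.1 ± 0.133 CPM in RPTi, 1.30-fold lower than in RPT (adjusted p = 0.00354). Irak1, the kinase recruited by Myd88, was at 144 to 157 CPM in RP, 153 to 157 CPM in RPT and 133 to 135 CPM in RPTi. It fell between RPT and RPTi (-0.21, SE 0.05, adjusted p = 0.00636) and was lower in RPTi than in RP (-0.16, SE 0.05, adjusted p = 0.0416). The second of these Irak1 differences did not pass under 9 of 15 alternatives, with adjusted p from 0.00794 to 0.123 over all of them. Among those 9 were the fits without RP replicate 1 (-0.17), RP replicate 2 (-0.13), RP replicate 3 (-0.19), RPT replicate 1 (-0.16), RPTi replicate 1 (-0.17), RPTi replicate 2 (-0.16) or RPTi replicate 3 (-0.17).

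The 3 IKK genes differed little between the groups. Ikbkb, the catalytic subunit of canonical signalling, was at 34.6 to 35.8 CPM in RP, 34.7 to 35.7 CPM in RPT and 33.2 to 34.6 CPM in RPTi, and its log2 fold change with thrombin was 0.01 (SE 0.06, adjusted p = 0.942). Chuk, the catalytic subunit IKK alpha, was at 0.05 (SE 0.10, adjusted p = 0.729). The scaffold gene Ikbkg (NEMO) was at 0.09 (SE 0.09, adjusted p = 0.504) with thrombin and lay at the threshold in RPTi against RPT (-0.23, SE 0.09, adjusted p = 0.0492), a call that 11 of 15 alternatives did not give (adjusted p from 0.0115 to 0.161). It was lost, among others, without RP replicate 1 (-0.23), RP replicate 2 (-0.23), any 1 of the 3 RPT libraries (-0.26, -0.21 and -0.23 for replicates 1 to 3), RPTi replicate 1 (-0.24) or RPTi replicate 3 (-0.19).

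Map3k8 (ENSRNOG00000016378) encodes TPL2, the kinase that links the NF-kB p105 protein to MEK and ERK. It was scarce, at 0.882, 1.40 and 1.16 CPM in RP, 1.86, 1.95 and 2.10 CPM in RPT, and 1.78, 1.61 and 1.98 CPM in RPTi. Both thrombin groups lay above all RP libraries and overlapped each other. The rise with thrombin was 1.72-fold (log2 fold change 0.79, SE 0.22, adjusted p = 0.0199) and missed the threshold on leaving out RP replicate 1 (0.62, adjusted p = 0.0847) or, in turn, RPT replicate 3 (0.74, adjusted p = 0.0508). In RPTi against RP, Map3k8 was at 0.65 (SE 0.23, adjusted p = 0.0537), passing on leaving out RP replicate 2 (0.81, adjusted p = 0.0383), and in RPTi against RPT at -0.13 (adjusted p = 0.663).

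The IkB proteins include Nfkbia, Nfkbib and Nfkbie, which retain NF-kB in the cytoplasm, and Nfkbiz and Bcl3, which act in the nucleus. Nfkbiz (ENSRNOG00000031163), a coactivator of secondary response genes, was at 2.31, 2.68 and 2.72 CPM in RP, 8.60, 7.68 and 13.3 CPM in RPT, and 4.26, 4.39 and 3.99 CPM in RPTi. The 3 groups did not overlap, RPT being highest, and RPT replicate 3 lay well above the other RPT libraries. It rose 3.84-fold with thrombin (log2 fold change 1.94, SE 0.19, adjusted p = 1.04e-05) and was 2.34-fold lower in RPTi than in RPT (adjusted p = 0.000191). The 1.64-fold difference between RPTi and RP (adjusted p = 0.0195) missed the threshold without RP replicate 1 (0.64 on the log2 scale, adjusted p = 0.0759), RPTi replicate 1 (0.70, adjusted p = 0.0581) or RPTi replicate 2 (0.68, adjusted p = 0.0593).

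The cytoplasmic inhibitors had smaller fold changes. Nfkbia, the classical feedback inhibitor, was at 18.8, 20.1 and 17.1 CPM in RP, 25.7, 23.6 and 22.9 CPM in RPT, and 21.7, 21.0 and 20.3 CPM in RPTi. It rose 1.29-fold with thrombin (log2 fold change 0.37, SE 0.08, adjusted p = 0.00536) and stood between the other groups in RPTi, without passing against either (adjusted p = 0.0746 against RPT and 0.159 against RP). With library totals alone, Nfkbia passed in RPTi against RPT (-0.27, adjusted p = 0.019). Nfkbie rose 1.30-fold (0.38, SE 0.11, adjusted p = 0.0186), but not without RP replicate 1 (0.36, adjusted p = 0.0652), RP replicate 3 (0.36, adjusted p = 0.0527) or RPT replicate 2 (0.26, adjusted p = 0.0745). In RPTi against RPT, Nfkbie did not pass (-0.21, adjusted p = 0.139), but did on leaving out RPT replicate 3 (-0.31, adjusted p = 0.0256) and with library totals alone (-0.28, adjusted p = 0.0492). Nfkbib was at 0.14 (SE 0.11, adjusted p = 0.394). Bcl3, a partner of p50 and p52 homodimers, was at 0.09 with thrombin (adjusted p = 0.555) and higher in RPTi (12.7 to 14.9 CPM) than in RP (10.5 to 11.7 CPM, a log2 fold change of 0.33, adjusted p = 0.0384). The Bcl3 call was lost with library totals alone (adjusted p = 0.0806) and without RP replicate 1 (0.28 on the log2 scale), RP replicate 2 (0.34), RP replicate 3 (0.36), RPTi replicate 2 (0.29) or RPTi replicate 3 (0.29).

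Of the 5 subunit genes, Relb had the largest change. Relb (ENSRNOG00000033235), the partner of p52 in the alternative pathway, was at 2.87, 3.25 and 3.65 CPM in RP, 8.24, 9.26 and 7.10 CPM in RPT, and 6.18, 5.75 and 6.73 CPM in RPTi. All 3 groups were separate, and the RPTi mean of 6.22 CPM lay nearer to that of RPT (8.20) than to that of RP (3.25). Relb rose 2.52-fold with thrombin (log2 fold change 1.33, SE 0.14, adjusted p = 1.81e-05) and was 1.91-fold higher in RPTi than in RP (0.94, SE 0.14, adjusted p = 0.00047). The step from RPT to RPTi was smaller (-0.40, SE 0.14, adjusted p = 0.0339) and missed the threshold without RPT replicate 1 (-0.40, adjusted p = 0.0769), RPT replicate 2 (-0.30, adjusted p = 0.12), RPTi replicate 1 (-0.39, adjusted p = 0.0874) or RPTi replicate 2 (-0.35, adjusted p = 0.115).

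Nfkb2, the precursor of p52, was at 24.1 to 28.8 CPM in RP, 30.1 to 37.5 CPM in RPT and 34.2 to 34.9 CPM in RPTi. Nfkb2 rose with thrombin (0.34 on the log2 scale, SE 0.09, adjusted p = 0.0145) and was 1.30-fold higher in RPTi than in RP (adjusted p = 0.00887), with RPTi against RPT at 0.04 (SE 0.09, adjusted p = 0.736). The thrombin call of Nfkb2 was lost on leaving out RP replicate 3 (0.27, adjusted p = 0.0562) or, in turn, RPT replicate 2 (0.25, adjusted p = 0.0533). Nfkb1, the precursor of p50, rose 1.18-fold with thrombin (69.6 ± 1.18 to 82.0 ± 2.79 CPM, SD, n = 3, adjusted p = 0.0176) and was 1.23-fold lower in RPTi than in RPT (66.5 ± 4.83 CPM, adjusted p = 0.00273). Its rise missed the threshold without RP replicate 1 (0.23 on the log2 scale, adjusted p = 0.0641). Rela, the p65 subunit, was at 67.5 to 73.4 CPM in RP, 74.9 to 88.3 CPM in RPT and 68.5 to 74.5 CPM in RPTi, so RPT lay above both, but it did not pass (0.19, SE 0.07, adjusted p = 0.0627 with thrombin, and -0.17, adjusted p = 0.0795, in RPTi against RPT). It passed with thrombin in DESeq2 (0.20, adjusted p = 0.0409), with library totals alone (0.21, adjusted p = 0.0381) and on leaving out RPT replicate 3 (0.25, adjusted p = 0.0212). In RPTi against RPT, Rela passed with library totals alone (-0.24, adjusted p = 0.0143) and on leaving out RPT replicate 3 (-0.22, adjusted p = 0.0258). Rel, the lymphoid subunit c-Rel, was at 1.84 to 4.18 CPM over the 9 libraries and passed in no comparison, its RPT value of 4.18 CPM coming from replicate 3 and the other RPT libraries being at 2.46 and 2.26 CPM. Without RPT replicate 2, Rel passed in RPTi against RPT (-0.68, adjusted p = 0.043).

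Per length, the subunits ranked in RP as Rela (29.1 ± 0.999 FPKM, SD, n = 3), Nfkb1 (18.2 ± 0.208), Nfkb2 (8.70 ± 0.712), Relb (1.68 ± 0.209) and Rel (1.36 ± 0.157), where Relb and Rel overlapped within 1 SD. In RPT the order was the same, with Relb at 4.29 ± 0.560 FPKM and Rel at 1.71 ± 0.599 FPKM.

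Of the 3 brakes on the pathway, Zc3h12a and Tnfaip3 rose with thrombin and Tnip1 did not pass. Over all genes tested, 13.6% rose and 15.2% fell. Zc3h12a (ENSRNOG00000009131), which encodes the RNase regnase-1 that degrades inflammatory mRNAs, was at 9.84, 9.47 and 10.2 CPM in RP, 25.5, 29.3 and 27.5 CPM in RPT, and 18.0, 16.8 and 16.8 CPM in RPTi. The groups did not overlap, with RPTi in the middle. It rose 2.79-fold with thrombin (log2 fold change 1.48, SE 0.08, adjusted p = 9.77e-08), was 1.59-fold lower in RPTi than in RPT (adjusted p = 2.27e-05) and was 1.75-fold higher in RPTi than in RP (adjusted p = 1.8e-05).

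Tnfaip3 (ENSRNOG00000049517), the ubiquitin-editing enzyme A20, was at 1.94, 1.91 and 2.35 CPM in RP, 4.84, 3.93 and 3.08 CPM in RPT, and 1.67, 1.45 and 2.21 CPM in RPTi. RPT lay above the other groups, which overlapped. Tnfaip3 rose 1.91-fold (log2 fold change 0.94, SE 0.22, adjusted p = 0.00631) and was 2.22-fold lower in RPTi than in RPT (adjusted p = 0.0011). Tnip1, the A20-binding protein ABIN-1, was at 58.4 to 67.2 CPM in RP, 60.0 to 72.8 CPM in RPT and 65.9 to 71.6 CPM in RPTi, and passed in no comparison (0.12 with thrombin, SE 0.08, adjusted p = 0.296). Of the promoters shown above, those of Tnfaip3 and Tnip1 both hold 3 kB matches, which are not alike. Those of Tnfaip3 begin at -170, -67 and -55 and do not overlap, although those at -67 and -55 lie close together. Those of Tnip1 begin at -86, -85 and -84 and overlap in a single stretch.

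With thrombin, the 4 genes listed as adhesion and other targets gave 1 rise, 1 fall and 2 that did not pass. Over all genes tested, 13.6% rose and 15.2% fell. Sod2 (ENSRNOG00000019048), the mitochondrial superoxide dismutase, was at 42.9, 45.5 and 39.7 CPM in RP, 125, 112 and 123 CPM in RPT, and 57.4, 59.7 and 55.5 CPM in RPTi. All groups were separate. Sod2 rose 2.81-fold with thrombin (log2 fold change 1.49, SE 0.07, adjusted p = 4.61e-08), was 2.08-fold lower in RPTi than in RPT (adjusted p = 1.34e-07) and was 1.35-fold higher in RPTi than in RP (adjusted p = 0.000916).

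Icam1 (ENSRNOG00000020679), an adhesion molecule that binds leukocyte integrins, was at 117, 115 and 111 CPM in RP and 124, 121 and 112 CPM in RPT, which overlapped (log2 fold change 0.06, SE 0.06, adjusted p = 0.513). In RPTi it was at 209, 203 and 217 CPM, above all other libraries. Icam1 was 1.76-fold higher in RPTi than in RPT (0.82, SE 0.06, adjusted p = 2.51e-07) and 1.83-fold higher than in RP (0.88, SE 0.06, adjusted p = 5.4e-07).

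Vcam1 (ENSRNOG00000014333), the other adhesion molecule, was low throughout, at 2.24, 1.94 and 2.62 CPM in RP, 0.601, 0.557 and 0.884 CPM in RPT, and 0.974, 0.904 and 1.20 CPM in RPTi. The RP libraries were above all others. Vcam1 fell 3.32-fold with thrombin (log2 fold change -1.73, SE 0.26, adjusted p = 0.000274) and was 2.20-fold lower in RPTi than in RP (adjusted p = 0.00509). The difference between RPTi and RPT did not pass (0.59, SE 0.27, adjusted p = 0.095), but passed without RPT replicate 3 (0.82, adjusted p = 0.04). Tnfaip2 (ENSRNOG00000010165), a TNF-induced gene, was at 23.0, 24.3 and 21.1 CPM in RP, 27.0, 27.1 and 23.3 CPM in RPT, and 13.5, 16.8 and 13.8 CPM in RPTi. RPTi lay below the other groups, which overlapped, and Tnfaip2 was 1.76-fold lower in RPTi than in RPT (adjusted p = 3.9e-05) and 1.55-fold lower than in RP (adjusted p = 0.000721).

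Both C/EBP genes, transcription factors that act with NF-kB at inflammatory promoters, rose with thrombin, where 13.6% of all genes tested rose. Cebpb (ENSRNOG00000057347) was at 33.9, 39.3 and 32.6 CPM in RP, 53.3, 57.1 and 41.7 CPM in RPT, and 25.1, 31.4 and 31.6 CPM in RPTi. The 3 groups did not overlap. Cebpb rose 1.44-fold (log2 fold change 0.53, SE 0.12, adjusted p = 0.00684) and was 1.73-fold lower in RPTi than in RPT (adjusted p = 0.000248), while RPTi against RP did not pass (-0.27, SE 0.13, adjusted p = 0.144). Cebpd was at 27.8 to 33.2 CPM in RP and 39.7 to 49.4 CPM in RPT, a 1.50-fold rise (0.59, SE 0.10, adjusted p = 0.00107). In RPTi Cebpd was at 34.9 to 41.7 CPM, overlapping RPT, and the fall from RPT (-0.30, SE 0.10, adjusted p = 0.0351) missed the threshold without RPT replicate 1 (-0.25, adjusted p = 0.121), RPT replicate 2 (-0.25, adjusted p = 0.103), RPTi replicate 1 (-0.25, adjusted p = 0.132) or RPTi replicate 3 (-0.27, adjusted p = 0.107). In RPTi against RP, Cebpd did not pass (0.29, SE 0.10, adjusted p = 0.0627), but did in DESeq2 (0.30, adjusted p = 0.0309), in the fit of these groups alone (0.29, adjusted p = 0.0324) and on leaving out RPT replicate 3 (0.29, adjusted p = 0.0252).

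A further 72 genes of the pathway were listed, of which 68 were in the table and 59 could be tested. This list was also chosen with earlier results of these data known. With thrombin 17 rose (28.8%, against 13.6% of all genes tested), 6 fell (10.2%, against 15.2%) and 36 did not pass. In RPTi against RPT 7 rose (11.9%, against 20.4%) and 25 fell (42.4%, against 21.1%). In RPTi against RP 8 rose (13.6%, against 11.9%) and 14 fell (23.7%, against 12.3%), the share of rises being near that of all genes. Of the 23 adaptor and kinase genes of this list, 1 passed with thrombin, a fall of the kinase gene Irak2 (log2 fold change -0.37, SE 0.09, adjusted p = 0.00985). The listed target genes were 11 rising and 2 falling of 16, and in RPTi against RPT 1 rising and 13 falling. With the smallest p among rises stood the siderophore-binding protein gene Lcn2 (12.3 ± 0.794 to 194 ± 20.3 CPM, SD, n = 3) and the chemokine genes Ccl2 (6.60 ± 0.624 to 41.2 ± 7.06 CPM) and Cxcl1 (4.26 ± 0.675 to 28.2 ± 4.36 CPM). In RPTi these 3 genes were at 69.2 ± 8.01, 7.09 ± 0.894 and 5.59 ± 0.824 CPM. Tlr5, the flagellin receptor, fell with thrombin (7.85 ± 0.208 to 4.38 ± 0.536 CPM) and was lower in RPTi than in RPT (2.56 ± 0.444 CPM, adjusted p = 0.0014). Irf1, an interferon regulatory factor, and N4bp1, a brake on NF-kB signalling, also fell with thrombin (-0.43, SE 0.08, and -0.28, SE 0.07). Like Icam1, the stress gene Gadd45b was highest in RPTi, at 29.5 ± 0.965 CPM against 13.8 ± 1.94 in RPT and 17.2 ± 0.528 in RP, although unlike Icam1 it fell with thrombin (-0.32, SE 0.10, adjusted p = 0.0264). The macrophage growth factor gene Csf1 was at 181 ± 4.48 CPM in RP, 265 ± 4.20 in RPT and 142 ± 5.10 in RPTi.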

How the data were processed

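Gene expression was measured by poly-A RNA sequencing in 9 libraries of 3 groups, taken from the sample titles. The deposited table held read counts per Ensembl gene, 1 column per library, and the authors' FPKM values from the same counts, which a whole-number length per gene and the library total reproduce within a relative difference of 2.2e-13. HISAT2, HTSeq 0.11.2 and DESeq2 1.26.0, and the build Rnor_6.0, are named in the submitters' processing notes without roles. In the sources used here the strand setting and the annotation release are not given, so genes that overlap others are uncertain.

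Genes were kept by filterByExpr (minimum count 10, minimum total 15), which left 13856 of 18924. Libraries were scaled by TMM, and edgeR 4.0.16 (R 4.3.3) fitted 1 quasi-likelihood model to all 9 libraries, with p-values adjusted over all genes tested. The fit was also run on simulated counts, drawn independently for each library with the means and spread of these data. That run could not reveal a pairing of libraries. Each SE is the log2 fold change divided by the square root of F. FPKM served only to compare levels between genes. The 40 genes and the lists were chosen with earlier results of these data known. Every one of the 40 could be named. Values in each library are given for the 17 that passed in any comparison with an absolute log2 fold change of at least 0.6, and for some others. Of the other pathway genes, up to 3 rises and 3 falls per comparison with the smallest p could be named, and Irak2 is also named in RPT against RP as the single call of its list, chosen after its value was seen, as were Map3k7, Nos2 and Tnip3. Promoters came from a RefSeq table on GRCr8, a build other than that of the counts. Alternatives were DESeq2 1.42.0, edgeR with DESeq2 size factors or with library totals alone, keeping all genes, only the 2 groups compared, a replicate block, and leaving out each library.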

Additional observations from a re-analysis of the deposited data

How the results depend on the processing

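Over 1755 values of single genes under the alternatives, 1687 kept their side of the threshold and, where called, their direction, 47 lost a call, 21 gained one and no called value changed sign. Counts of risen or fallen genes stayed within 1.5 times those reported except in RPTi against RP. There a replicate block gave 11 rather than 7 rising genes of the 40, and leaving out 1 library gave 3 to 5 falling genes of the 40 (5 reported), 5 to 8 rising (8 reported) and 8 to 14 falling (14 reported) among the other pathway genes. The lowest of these came without RP replicate 1 or RPTi replicate 1, and for the 8 falling pathway genes without RP replicate 3. The cause was not tested. The fits that left out a library also had fewer samples, and the part of this was not tested either. Replicate numbers are shared between groups. Deviations of same-numbered libraries correlated at -0.114 to 0.124 over 9 pairs, against -0.161 to 0.143 over 18 pairs with different numbers. With 3 libraries per group this check cannot exclude a pairing, and the replicate block describes no known one. Under the block 2514 rather than 1886 of all genes rose in RPT against RP. In RPTi against RPT 3255 rather than 2825 rose, and in RPTi against RP 2333 rather than 1647. Rela passed under the block with thrombin (0.19, adjusted p = 0.00858) and in RPTi against RPT (-0.17, adjusted p = 0.0128), and Nfkbia in RPTi against RPT (-0.20, adjusted p = 0.0345). The 4 further rises in RPTi against RP were those of Nfkbib, Map3k8, Tnfrsf1a and Cebpd. Cd40 had too few counts for a test. Map3k8, Rel, Tnfaip3 and Vcam1, at 0.557 to 4.84 CPM, were less precise than the other tested genes of the 40 (SE 0.22 to 0.27). The part of depth in this was not tested.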

Other observations

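Map3k7, which encodes the TAK1 kinase above IKK, varied widely within groups. It had 139, 27 and 184 counts in the RP libraries, 409, 256 and 253 in RPT, and 24, 13 and 203 in RPTi. Its log2 fold change of 1.57 with thrombin did not pass (adjusted p = 0.112), and that of -1.95 in RPTi against RPT passed narrowly (adjusted p = 0.0443).

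The inducible nitric oxide synthase gene Nos2, not tested at its low level, had 1, 0 and 0 counts in RP, 12, 8 and 6 in RPT, and 0 in each RPTi library. Tnip3, an A20-binding protein gene also below the filter, had 0, 3 and 0 counts in RP, 24, 5 and 22 in RPT, and 8, 0 and 2 in RPTi.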
